A study of Mus musculus with 2 samples.

Results

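The genes described here encode the enzymes that build nucleotides: the de novo purine chain, its branches to AMP and GMP, de novo pyrimidine synthesis, ribonucleotide reductase, the thymidylate enzymes, the kinases and transferases of salvage, and SAMHD1, which removes deoxynucleotides. They were taken from a list of 34 gene symbols matched exactly to the deposited table, and all 34 were found among its 23988 genes. The samples were 2 RNA-seq libraries, replicate 1 and replicate 2, of untransformed myeloid progenitors. These cells came from bone marrow of C57BL/6 mice that was depleted of lineage-positive cells and cultured for 7 days in IL3, SCF and IL6, with no further treatment, and no other genotype or condition was analysed here. The labels name no sorting after culture, and none tells whether the libraries came from separate mice or cultures, so the spread between them may be technical.

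Purine rings are assembled step by step on activated ribose phosphate to give IMP, which is then turned into AMP or GMP, whereas the pyrimidine ring is made as a base and then joined to ribose phosphate. Ribonucleotide reductase converts ribonucleotides to deoxynucleotides for DNA, and thymidylate is made from deoxyuridylate with folate as carbon donor. Dividing marrow progenitors draw on the de novo routes, while salvage enzymes recycle bases and nucleosides, and separate isoenzymes serve mitochondria and cells outside S phase.

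Values are RPKM, which scale reads by the length of the gene and the size of the library. The effective library sizes read from the steps between values were 29941063 in replicate 1 and 28793666 in replicate 2, so that 1 read in a gene of 1 kb was worth 0.0334 RPKM in replicate 1 against 0.0347 in replicate 2. The genes described here rested on at least 257 to at least 17050 reads per library. With 1 group of 2 libraries the smallest p of an exact permutation test that flips signs is 0.5, so no test was run and the comparisons are descriptions. Markers of neutrophil primary granules were high, with all 5 found in the table at a summed 5390 RPKM in replicate 1 against 4088 in replicate 2. Markers of other cells were also present: the 9 monocyte and macrophage genes summed to 1321 RPKM in replicate 1 against 3587 in replicate 2, the 4 MHC class II genes to 162 and 1185, the 7 mast cell genes to 252 and 1344, and the 2 basophil genes to 992 and 1948. Only 4 of the 7 mast cell genes reached 1 RPKM in both libraries. Cpa3 stood at 221 RPKM in replicate 1 against 556 in replicate 2 and Kit at 21.2 and 26.2. Mcpt2 stood at 4.97 and 402, and Cma1 at 3.55 and 211. No B cell, T cell, erythroid or stromal marker reached 1 RPKM in both libraries, and Ms4a1, Pax5, Cd3e, Cd4, Hba-a1 and Hbb-b1 were listed at 0 in both. The erythroid markers Klf1 and Epor passed 1 RPKM in replicate 2 only, at 1.47 and 1.56.

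Promoter sequences are shown for 5 genes whose values the account below turns on: Paics and Ppat, whose 5′ ends face each other, Rrm2, the highest of the genes, and the paralogs Prps1 and Prps2. Each is RefSeq's window of 300 bases on GRCm38.p6, which is not the authors' build, written along the gene's own strand, with capitals marking matches on either strand to E2F-type letters (TTTGGCGC, TTTGCCGC, TTTCGCGC or TTTCCCGC), to CCAAT or to the E-box CACGTG.
Paics (chr5:76951052-76951351, plus strand): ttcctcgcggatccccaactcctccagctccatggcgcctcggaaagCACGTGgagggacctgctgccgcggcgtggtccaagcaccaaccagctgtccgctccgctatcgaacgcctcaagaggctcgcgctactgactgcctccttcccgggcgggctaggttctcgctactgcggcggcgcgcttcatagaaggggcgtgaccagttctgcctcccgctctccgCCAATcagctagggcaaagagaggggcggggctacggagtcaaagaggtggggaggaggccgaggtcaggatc
Ppat (chr5:76951529-76951828, minus strand): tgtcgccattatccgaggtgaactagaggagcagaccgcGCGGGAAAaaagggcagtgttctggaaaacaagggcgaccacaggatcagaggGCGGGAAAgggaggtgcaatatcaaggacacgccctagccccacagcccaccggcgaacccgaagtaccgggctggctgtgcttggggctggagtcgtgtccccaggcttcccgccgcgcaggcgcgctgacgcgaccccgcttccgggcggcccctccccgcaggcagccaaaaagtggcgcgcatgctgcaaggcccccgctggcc
Rrm2 (chr12:24708004-24708303, plus strand): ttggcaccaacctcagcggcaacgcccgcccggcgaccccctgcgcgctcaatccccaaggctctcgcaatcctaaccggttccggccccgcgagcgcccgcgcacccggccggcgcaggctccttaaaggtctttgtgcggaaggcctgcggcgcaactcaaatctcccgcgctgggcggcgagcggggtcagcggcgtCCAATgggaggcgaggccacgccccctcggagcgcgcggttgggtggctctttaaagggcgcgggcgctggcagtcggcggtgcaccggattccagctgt
Prps1 (chrX:140456353-140456652, plus strand): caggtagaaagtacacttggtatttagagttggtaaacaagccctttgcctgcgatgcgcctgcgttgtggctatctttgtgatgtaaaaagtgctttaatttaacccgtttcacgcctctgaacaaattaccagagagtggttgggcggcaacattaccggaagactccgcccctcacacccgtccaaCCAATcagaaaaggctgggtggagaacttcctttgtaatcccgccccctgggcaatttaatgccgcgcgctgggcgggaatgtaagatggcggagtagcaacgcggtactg
Prps2 (chrX:167382700-167382999, minus strand): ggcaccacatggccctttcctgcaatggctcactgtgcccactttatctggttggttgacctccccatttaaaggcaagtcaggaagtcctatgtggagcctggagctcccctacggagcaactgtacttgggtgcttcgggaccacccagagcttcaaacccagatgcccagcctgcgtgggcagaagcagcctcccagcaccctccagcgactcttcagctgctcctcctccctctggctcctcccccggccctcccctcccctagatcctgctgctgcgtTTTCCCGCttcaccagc
The RefSeq start sites of Paics and Ppat lie on opposite strands, and the 276 bases between them belong to both genes. The Ppat window held 2 E2F-type matches and no CCAAT, and the Paics window held 1 CCAAT and 1 E-box. Rrm2 and Prps1 each had 1 CCAAT, and Prps2 had 1 E2F-type match. Among all the listed genes 31 had a promoter in the table; those without were Pfas, Dhodh and Rrm2b. An E-box was found for 6 of 31 (19.4%), namely Paics, Atic, Impdh2, Tyms, Dtymk and Nme1, against 12.2% of the 8232 genes with a promoter and a mean of 1 RPKM or more and 8.09% of all 27025 genes with a promoter. CCAAT was found for 10 of 31 (32.3%), against 43.4% and 41.1%, and E2F-type letters for 2 of 31 (6.45%), against 4.94% and 2.60%. A match is only an occurrence of these letters, and genes with several start sites had more than 1 window.

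All 34 genes reached 1 RPKM in both libraries, where 43.5% of all genes in the table did and 62.3% of the 16777 genes above 0. The median over the 34 genes was 28.9 RPKM in replicate 1 against 21.8 in replicate 2 (25.3 ± 5.0, SD, n = 2), while the median of all genes above 0 was 4.19 RPKM in replicate 1 against 4.75 in replicate 2. Their mean levels ran from 2.86 RPKM for Rrm2b to 343 for Rrm2. In both libraries 28 of the 34 stood at 10 RPKM or more and 6 at 100 or more, namely Rrm2, Nme1, Aprt, Hprt, Nme2 and Paics. Neighbours in the order of mean levels kept that order in both libraries for 14 of 33 neighbouring pairs, so that much of the order is not resolved by 2 libraries.

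**Figure D1:**
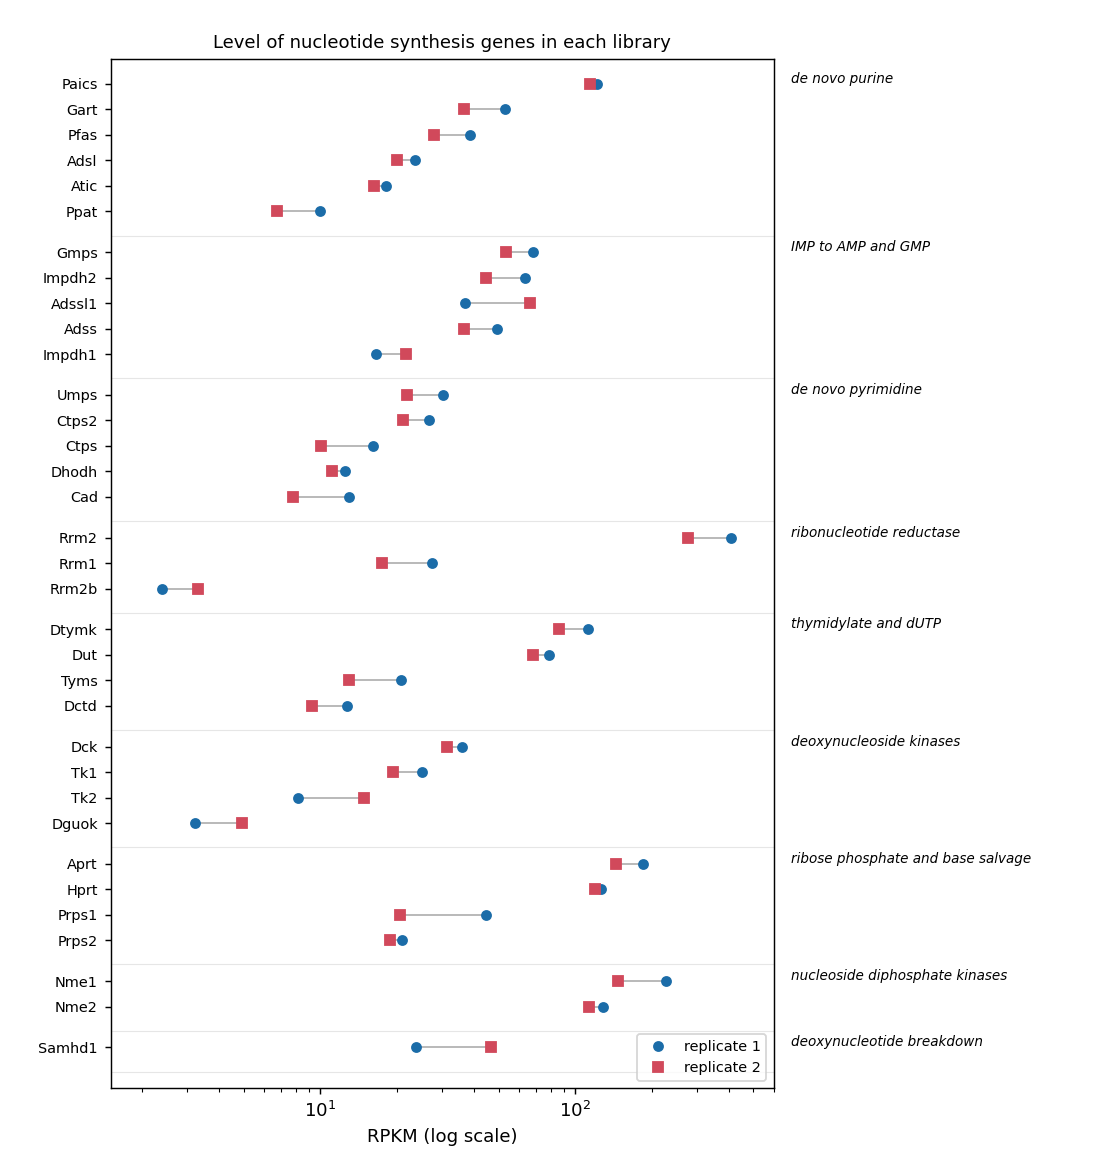
Level of each of the 34 genes in RPKM on a log scale, with circles for replicate 1 and squares for replicate 2, grouped by role. Rrm2 stands highest at 409 RPKM in replicate 1 against 277 in replicate 2 and Rrm2b lowest at 2.40 and 3.32; replicate 1 is the higher library for 28 genes and replicate 2 for 6.

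Levels of different genes depend on the gene lengths used by the authors, which no source used here gives. The smallest length that made all reads whole exceeded the longest GENCODE vM21 transcript for 17 of the 34 genes. For Rrm1 it was 13622 bp against 5475 bp and for Atic 8292 bp against 2845 bp, so that, if the read scale holds, their RPKM are at least 2.49-fold and 2.91-fold lower than a value per transcript length would be. Ratios of 1 gene between the libraries do not depend on the length. Rescaling to transcript lengths, used below, raised only those 17 genes, by the fitted length over the longest transcript. All other genes were left unchanged by it.

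All 6 genes of the de novo purine chain were expressed, with medians of 31.2 RPKM in replicate 1 against 23.9 in replicate 2. Ppat, which encodes the amidotransferase of the committed step, was the lowest of them at 9.997 RPKM in replicate 1 against 6.73 in replicate 2. Gart, a protein with 3 activities in the chain, stood at 52.8 RPKM in replicate 1 against 36.6 in replicate 2, and Pfas, the formylglycinamidine synthase, at 38.8 and 27.9. These genes of the early steps were all higher in replicate 1, by 1.48-fold for Ppat, 1.44-fold for Gart and 1.39-fold for Pfas in RPKM. Of all genes with a mean of 1 RPKM or more, 55.9% were higher in that library.

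Paics, which carries consecutive middle steps, was the highest of the chain at 121 RPKM in replicate 1 against 115 in replicate 2. Adsl (adenylosuccinate lyase, which also acts in AMP synthesis) stood at 23.6 RPKM in replicate 1 against 20.0 in replicate 2 and Atic, which closes the ring to IMP, at 18.1 and 16.2. Replicate 1 was also the higher library for these later enzymes, by 1.06-fold for Paics, 1.18-fold for Adsl and 1.11-fold for Atic. Paics exceeded its head-to-head neighbour Ppat by 12.1-fold in replicate 1 and 17.0-fold in replicate 2. The fitted length of Ppat, at least 6495 bp, was 1.56 times its longest transcript of 4158 bp, so this ratio too depends on the lengths used. Because the pair overlap on opposite strands and the strand setting of the counting is not given, reads from the shared bases cannot be assigned with certainty.

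The 5 genes of the branches from IMP had medians of 49.5 RPKM in replicate 1 against 44.6 in replicate 2, and their isoenzymes went in opposite directions between the libraries. Impdh2, the IMP dehydrogenase of dividing cells on the way to GMP, stood at 63.6 RPKM in replicate 1 against 44.6 in replicate 2, whereas Impdh1, the other isoenzyme, stood at 16.5 and 21.7. Gmps, GMP synthetase, stood at 68.5 RPKM in replicate 1 against 53.7 in replicate 2. It overlaps Slc33a1 (24.1 RPKM in replicate 1 against 23.1 in replicate 2).

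On the AMP branch, Adss, the adenylosuccinate synthase of most tissues, stood at 49.5 RPKM in replicate 1 against 36.5 in replicate 2. Adssl1, known as the muscle isoenzyme, reached 36.9 RPKM in replicate 1 against 66.5 in replicate 2. Adss was therefore the higher of this pair in replicate 1 and Adssl1 in replicate 2, and their difference on the log2(RPKM + 1) scale, -0.22 ± 0.89 (SD, n = 2), was smaller than its spread.

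De novo pyrimidine genes had a lower median than de novo purine genes, at 16.1 RPKM in replicate 1 against 11.1 in replicate 2. Cad, the protein of the opening 3 activities, stood at 12.9 RPKM in replicate 1 against 7.81 in replicate 2. Dhodh, the dehydrogenase of the mitochondrial inner membrane, stood at 12.5 RPKM in replicate 1 against 11.1 in replicate 2. Umps, which forms UMP, was the highest at 30.2 RPKM in replicate 1 against 21.9 in replicate 2. The CTP synthases followed at 16.1 RPKM in replicate 1 against 10.1 in replicate 2 for Ctps and 26.6 and 21.0 for Ctps2. All 5 were higher in replicate 1, from 1.12-fold for Dhodh to 1.66-fold for Cad. Of all genes with a mean of 1 RPKM or more, 55.9% were higher in replicate 1. For Dhodh the 95% interval of the ratio, which covers counting error only, included 1 (0.989 to 1.28). Single genes of the purine and pyrimidine chains were mixed in level. In both libraries Ppat lay below all 5 pyrimidine genes, and Umps and Ctps2 lay above Adsl and Atic. The places of Ppat and Atic in this order depend on the lengths used. Their fitted lengths were 1.56 and 2.91 times their longest transcripts, and rescaling would raise both. Cad overlaps Atraid (26.7 RPKM in replicate 1 against 32.4 in replicate 2), which was higher in replicate 2.

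The difference of medians between de novo purine and de novo pyrimidine genes was 0.87 in replicate 1 and 1.03 in replicate 2 on the log2(RPKM + 1) scale (0.95 ± 0.11, SD, n = 2), the same sign in both libraries and over 2 SD. Rescaling to transcript lengths, an alternative added after the data were seen, gave 1.44. The SD is between libraries and does not measure the spread among the genes of a group.

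The ribonucleotide reductase genes covered the whole range of levels. Rrm2, the small subunit made in S phase, was the highest of all 34 at 409 RPKM in replicate 1 against 277 in replicate 2. Rrm1, the large catalytic subunit, stood at 27.5 RPKM in replicate 1 against 17.4 in replicate 2. Rrm2 exceeded Rrm1 by 14.9-fold and 15.9-fold in RPKM, a ratio that depends on the lengths used, given the length fitted for Rrm1. Rrm2b, the small subunit that p53 induces and that works outside S phase, was the lowest gene at 2.40 RPKM in replicate 1 against 3.32 in replicate 2. Rrm1 and Rrm2 were thus 1.58-fold and 1.47-fold higher in replicate 1, and Rrm2b was 1.38-fold higher in replicate 2.

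The thymidylate and dUTP genes were all higher in replicate 1, where 55.9% of all genes with a mean of 1 RPKM or more were. Dtymk, thymidylate kinase, stood at 113 RPKM in replicate 1 against 86.1 in replicate 2, and Dut, the dUTPase that keeps uracil out of DNA, at 79.1 and 68.1. Tyms, thymidylate synthase, was lower at 20.8 RPKM in replicate 1 against 12.9 in replicate 2, and Dctd, the deoxycytidylate deaminase that feeds it, at 12.8 and 9.24. The ratio of the libraries was 1.61-fold for Tyms, 1.38-fold for Dctd, 1.31-fold for Dtymk and 1.16-fold for Dut.

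The deoxynucleoside kinases split by compartment. Tk1, the cytosolic thymidine kinase of S phase, stood at 24.9 RPKM in replicate 1 against 19.3 in replicate 2, and Dck, the cytosolic deoxycytidine kinase, at 35.8 and 31.4. The mitochondrial kinases went the other way, with Tk2 at 8.16 RPKM in replicate 1 against 14.8 in replicate 2 and Dguok, deoxyguanosine kinase, at 3.21 and 4.94. Tk2 was 1.81-fold and Dguok 1.54-fold higher in replicate 2 in RPKM. Tk1 overlaps Afmid (7.73 RPKM in replicate 1 against 9.29 in replicate 2).

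Samhd1, whose product hydrolyses deoxynucleoside triphosphates and is abundant in myeloid cells, stood at 23.8 RPKM in replicate 1 against 46.7 in replicate 2. Its 1.97-fold difference was the largest in that direction among the 34 genes. The 7 enzymes of replicative deoxynucleotide supply (Rrm1, Rrm2, Tyms, Dtymk, Tk1, Dut and Dctd) were all higher in replicate 1, and the 4 set against them (Rrm2b, Tk2, Dguok and Samhd1) were all higher in replicate 2. The deoxynucleoside kinase gene Dck was placed in neither group. It was higher in replicate 1, at 35.8 RPKM against 31.4 in replicate 2, so the split depends on the choice of genes. Of the 10896 genes with a mean of 1 RPKM or more, 55.9% were higher in replicate 1. Both groups were chosen with earlier results of these data known. The difference of medians between these groups was 2.20 in replicate 1 and 1.07 in replicate 2 on the log2(RPKM + 1) scale (1.63 ± 0.80, SD, n = 2), just over 2 SD, and 2.48 with rescaling to transcript lengths.

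The purine base salvage genes Aprt and Hprt ranked 3 and 4 among the 34 by mean level, although Nme2 lay above Hprt in replicate 1. Aprt, which recycles adenine, stood at 184 RPKM in replicate 1 against 144 in replicate 2, and Hprt, which recycles hypoxanthine and guanine, at 126 and 119. The paralogs that make phosphoribosyl pyrophosphate differed from each other: Prps1 stood at 44.5 RPKM in replicate 1 against 20.5 in replicate 2, while Prps2 stood at 20.8 and 18.8. The 2.18-fold difference of Prps1 was the largest between the libraries among the 34 genes. The nucleoside diphosphate kinase genes stood at 228 RPKM in replicate 1 against 148 in replicate 2 for Nme1 and 129 and 113 for Nme2. The products of this pair are closely alike in sequence, so reads may be lost or shared between them and their separate values are uncertain.

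Among the 8 pairs of related enzymes, 4 had a difference of the same sign in both libraries and over 2 SD. Rrm2 exceeded Rrm2b by 6.46 ± 0.64 on the log2(RPKM + 1) scale, Dck exceeded Dguok by 2.79 ± 0.48, Impdh2 exceeded Impdh1 by 1.45 ± 0.62, and Ctps lay below Ctps2 by -0.84 ± 0.21 (SD, n = 2 each). The other 4 were within 2 SD: Tk1 minus Tk2 at 0.93 ± 0.80, Prps1 minus Prps2 at 0.59 ± 0.67, Nme1 minus Nme2 at 0.60 ± 0.31, and Adss minus Adssl1 as above. With rescaling to transcript lengths, Impdh2 minus Impdh1 was 1.02 ± 0.63, no longer over 2 SD. Nme1 minus Nme2 turned to -0.17, where rescaling raised Nme2 and left Nme1 unchanged.

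**Figure D2:**
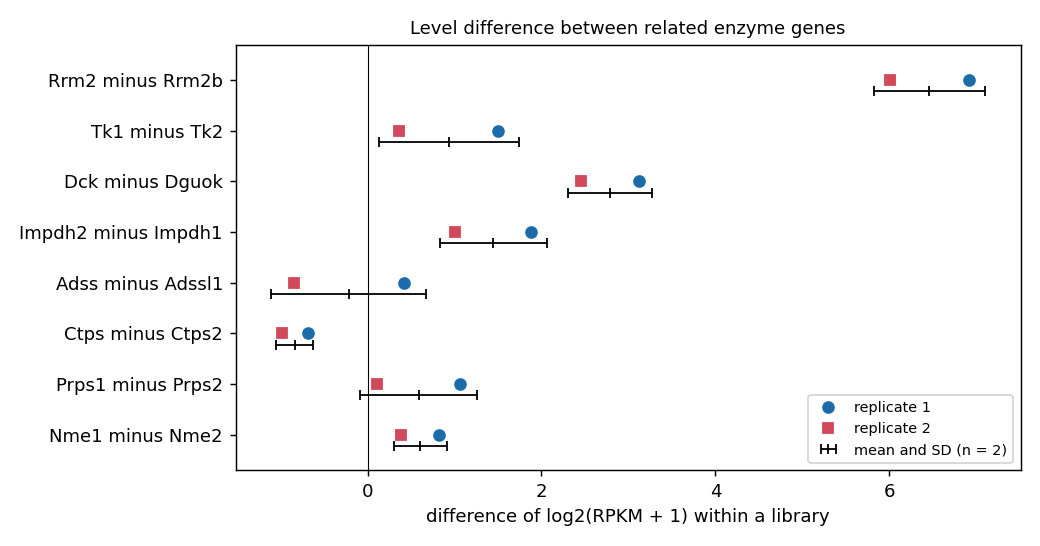
Difference of log2(RPKM + 1) between the members of 8 enzyme pairs within each library (circles, replicate 1; squares, replicate 2), with the mean and SD of the 2 libraries below. Rrm2 minus Rrm2b is far from 0 at 6.91 and 6.01, while Adss minus Adssl1 changes sign, at 0.41 and -0.85.

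Across the whole list, 28 of 34 genes were higher in replicate 1, where 55.9% of the 10896 genes with a mean of 1 RPKM or more were. With a pseudocount of 1, the log2 ratio of replicate 1 over replicate 2 had a median of 0.35 over the 34 genes and 0.05 over all such genes. The 6 genes on the other side were Samhd1, Adssl1, Tk2, Dguok, Impdh1 and Rrm2b, and no gene lay between -0.35 (Rrm2b) and 0.08 (Hprt). At 1.5-fold or more on RPKM + 1, 6 of 34 genes were higher in replicate 1, namely Prps1, Cad, Tyms, Rrm1, Ctps and Nme1, where 4.26% of all genes tested were. In the other direction 3 of 34, Samhd1, Adssl1 and Tk2, passed that fold, where 11.3% of all genes did. With the ratios centred on the median of all genes the first count was 3, and at 2-fold only Prps1 passed. The shares of all genes at those settings were not counted, so 4.26% is no background for these counts.

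These ratios were mostly larger than counting error. From the smallest read numbers that fit, the 95% interval of the ratio lay above 1 for 26 genes and below 1 for 6, and it included 1 for Dhodh (0.989 to 1.28) and Hprt (0.99997 to 1.12). For Prps1 it ran from 2.05 to 2.31 and for Samhd1, as replicate 1 over replicate 2, from 0.491 to 0.527. The intervals cover counting error only and say nothing of variation between cultures, which 2 libraries of 1 group cannot separate from a technical difference.

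**Figure D3:**
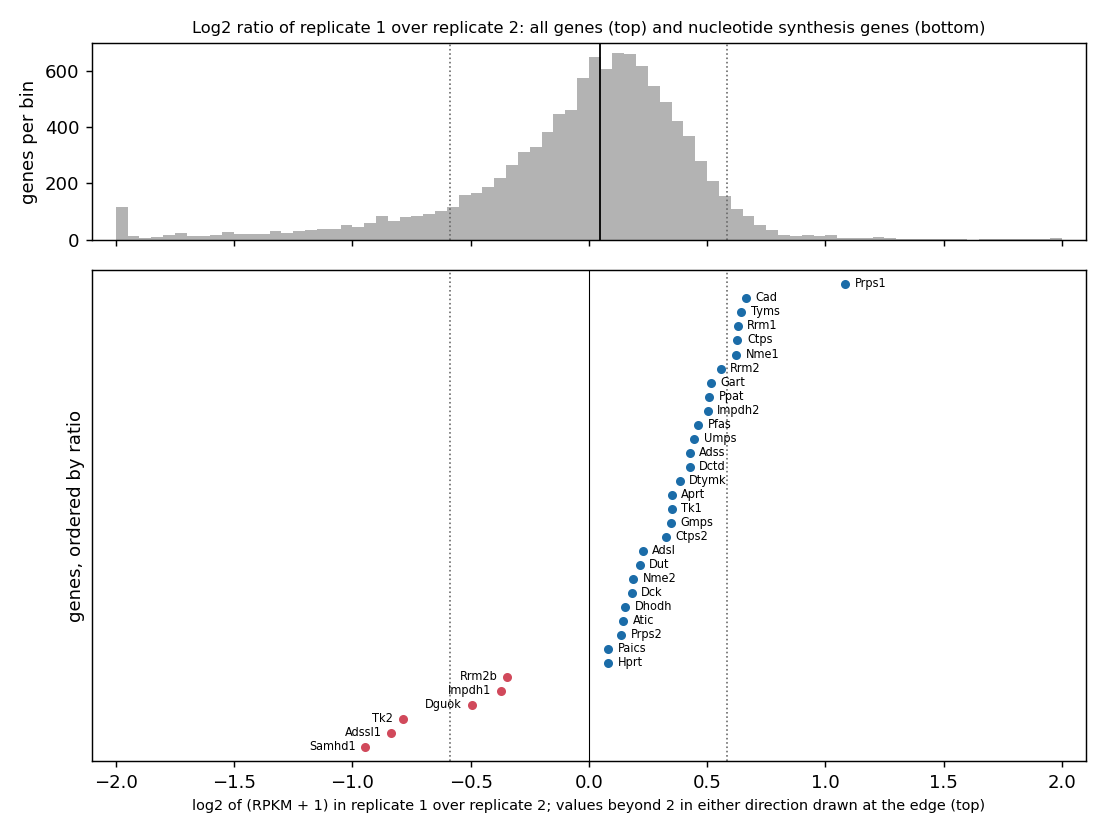
Log2 ratio of replicate 1 over replicate 2 (RPKM + 1) for all 10896 genes with a mean of 1 RPKM or more (histogram, with the line at their median of 0.05) and for the 34 nucleotide synthesis genes in order. Dotted lines mark 1.5-fold, which 6 of the 34 pass on the side of replicate 1 and 3 on the side of replicate 2.

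Of 7 genes that supply folate carbon, 6 were at 1 RPKM or more in both libraries, and 5 of those 6 were higher in replicate 1, where 55.9% of all genes tested were, with a median log2 ratio of 0.60. Shmt2, the mitochondrial serine hydroxymethyltransferase, stood at 86.6 RPKM in replicate 1 against 52.3 in replicate 2. Mthfd1l, a mitochondrial formyltetrahydrofolate synthetase, was the exception at 47.5 RPKM in replicate 1 against 63.6 in replicate 2.

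Of 22 further kinases and salvage genes, 13 of the 20 with a mean of 1 RPKM or more were higher in replicate 1, near the 55.9% of all genes, with a median log2 ratio of 0.08. Ak4, the adenylate kinase of the mitochondrial matrix, stood at 10.8 RPKM in replicate 1 against 93.7 in replicate 2. Cmpk1, the UMP and CMP kinase, stood at 202 RPKM in replicate 1 against 184 in replicate 2, and Uck2, uridine-cytidine kinase, stood at 61.6 and 49.6.

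Of 22 genes of breakdown found in the table, 13 were at 1 RPKM or more in both libraries, and 8 of those 13 were higher in replicate 1, again near the 55.9% of all genes, with a median log2 ratio of 0.03. Xdh, xanthine dehydrogenase at the end of purine breakdown, stood at 75.4 RPKM in replicate 1 against 202 in replicate 2, and Gda, guanine deaminase, at 201 and 273. Ada, adenosine deaminase, had 10.9 RPKM in replicate 1 against 4.98 in replicate 2, and Pnp, purine nucleoside phosphorylase, stood at 142 and 139. The 34 listed genes include Samhd1, whose product hydrolyses deoxynucleoside triphosphates. They exceeded the breakdown genes by 2.004 ± 0.010 (SD, n = 2) in median log2(RPKM + 1). That difference rested on breakdown genes at or near 0, such as Dpyd, listed at 0 in both: among genes with a mean of 1 RPKM or more it was 0.42 in replicate 1 and -0.80 in replicate 2 (-0.19 ± 0.87, SD, n = 2), within its spread.

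Genes of the replication fork showed a like shift in these libraries. All 17, among them Mcm3 (117 RPKM in replicate 1 against 76.7 in replicate 2) and Pcna (105 and 74.7), were higher in replicate 1, with a median log2 ratio of 0.49. All 10 mitotic genes were also higher in replicate 1, at a median of 0.28, including Mki67 at 164 RPKM in replicate 1 against 140 in replicate 2. Of 10 p53 target genes, the class to which Rrm2b belongs, 3 were higher in replicate 1, where 55.9% of all genes tested were. Cdkn1a, at 52.0 RPKM in replicate 1 against 105 in replicate 2, was the only p53 target past 1.5-fold on RPKM + 1, while Mdm2 had 72.7 RPKM in replicate 1 against 73.0 in replicate 2 and Bax 41.1 against 30.6. All 5 primary granule genes were higher in replicate 1, whereas all 9 monocyte and macrophage genes, all 4 MHC class II genes and all 6 mast cell genes with a mean of 1 RPKM or more were higher in replicate 2. Their part in the differences of the nucleotide genes was not tested. In bulk RNA, fewer cells of a type and less RNA per cell cannot be told apart.

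**Figure D4:**
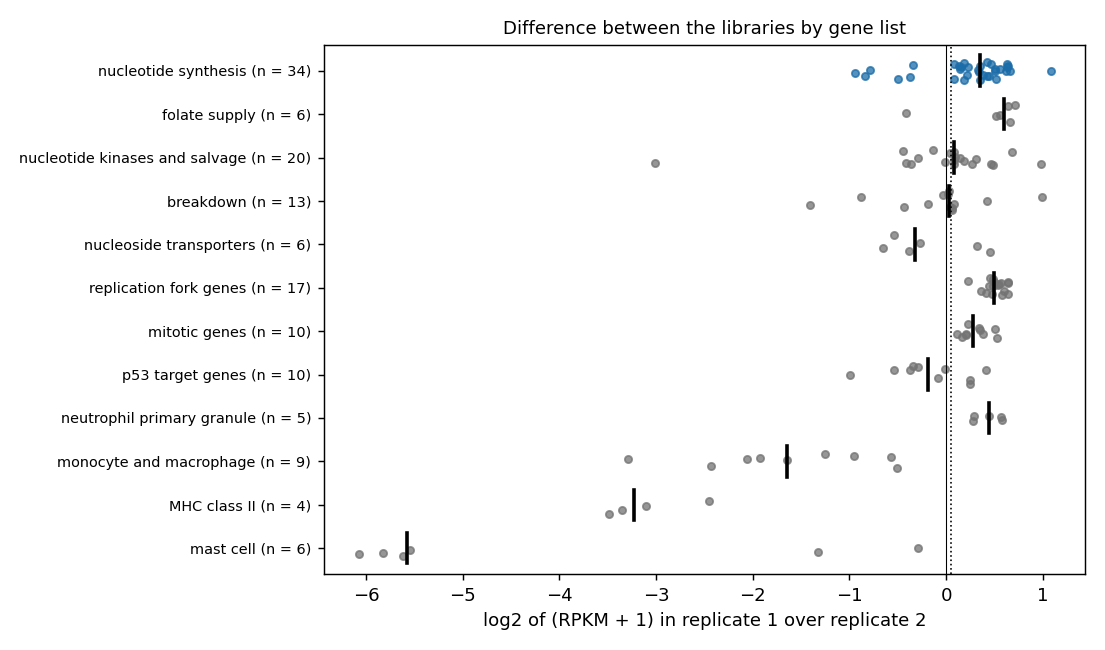
Log2 ratio of replicate 1 over replicate 2 (RPKM + 1) for single genes with a mean of 1 RPKM or more, by list, with a bar at each list's median and a dotted line at the median of all genes (0.05). The nucleotide synthesis genes have a median of 0.35, between replication fork genes at 0.49 and mitotic genes at 0.28, while mast cell genes reach -6.08.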

How the data were processed

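RNA-seq of 2 libraries of 1 group was analysed. The authors deposited 1 table of RPKM values with a column per library, which were assigned by column name and sample title. The submitters' processing notes name Trimmomatic 0.32, TopHat2, HTSeq and edgeR with build mm9. The settings, annotation, strand and gene lengths were not given in the sources used here. Of 24015 rows, 27 had names turned into dates and were left out. Reads came from the steps between values: the size ratio (0.962, replicate 2 over replicate 1) was shared by 468 genes (tolerance 1e-07), and the scale by 15 of 859 genes with 1 GENCODE vM21 transcript (tolerance 1e-06). All 34 members gave whole reads in lowest terms (relative tolerance 2e-09). A ratio of large whole numbers can meet this tolerance by accident, so the match says less for genes with many reads. Sizes may include a normalisation factor, and read numbers and lengths are the smallest that fit. RPKM compared between the libraries can also depend on very high genes: S100a8 and S100a9 together held 7.19% of the sum in replicate 1 and 5.19% in replicate 2.

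Log2 ratios used a pseudocount of 1 and genes with a mean of 1 RPKM or more, and understate differences of low genes; a difference within libraries was called beyond the spread where both signs matched and the mean exceeded 2 SD. Intervals are exact binomial (Clopper-Pearson) at 95%. All members were named, and of the other lists genes among the 4 highest or with the 2 largest ratios in either direction, or to which a count of 5 or fewer refers, plus Dpyd and the overlapping and listed-at-0 genes, which were chosen after their values were seen. Some genes that the rule takes are not reported here. Members and lists were chosen with earlier results of these data known. Alternatives covered the pseudocount, filters, scaling, fold, summary statistic and single libraries. Python 3.11.15, pandas 2.3.3 and scipy 1.17.1 were used.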

Additional observations from a re-analysis of the deposited data

How the results depend on the processing

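The median level of the 34 genes, 25.3 RPKM, was 31.7 as a geometric mean, 41.2 with each library scaled to a sum of 1000000 and 40.8 with rescaling to transcript lengths; with 1 library left out it lay between 21.8 and 28.9. All 34 genes reached 1 RPKM with either library alone, and 32 reached 5 RPKM in both. The median log2 ratio of 0.35 was 0.30 when centred on the median of all genes, 0.29 without the 6 members that overlap another gene and 0.22 as a mean. The count of 6 genes higher in replicate 1 at 1.5-fold was 3 when centred and 1 at 2-fold. The count of 3 higher in replicate 2 was 0 at 2-fold. Both counts stayed within 1.5 times under the other planned settings. Shares of all genes when centred or at 2-fold were not counted. The count of 28 higher in replicate 1 by any amount was 28 when centred and 22 of the 28 members without an overlap. De novo purine minus pyrimidine was 0.83 with means and 1.44 with rescaling, and lay between 0.87 and 1.03 with 1 library left out. Replicative minus replication-independent enzymes was 2.48 with rescaling and lay between 1.07 and 2.20 with 1 library left out. Members minus breakdown enzymes was 2.18 with a pseudocount of 0.1, 2.09 with means and -0.19 over genes with a mean of 1 RPKM or more, since low breakdown genes were then left out, and lay between 1.996 and 2.011 with 1 library left out. With rescaling Nme1 minus Nme2 turned to -0.17 and Impdh2 minus Impdh1, at 1.02, no longer exceeded 2 SD. The other 6 pairs kept their sign and their side of 2 SD with rescaling. Among them, Rrm2 minus Rrm2b and Ctps minus Ctps2 held no rescaled gene and could not change. All 8 pairs kept their sign and their side of 2 SD with a pseudocount of 0.1. Rescaling to transcript lengths, the overlap filter and the count by any amount were added after the data were seen. No paired analysis was possible because the labels give a single group. With 2 libraries the spread is known only as a single difference, and a library left out leaves a value with no spread.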

Other observations

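Nucleoside transporters were low beside the synthesis genes. Of 9 genes, 5 stood at 1 RPKM or more in both libraries, and none exceeded 13.5 RPKM. Slc29a1, the main equilibrative transporter of the plasma membrane, stood at 10.8 RPKM in replicate 1 against 13.2 in replicate 2. Slc29a3, which acts in lysosomes, stood at 8.94 RPKM in replicate 1 against 13.5 in replicate 2, and Slc28a2, a sodium-coupled purine nucleoside carrier, at 4.98 and 8.41. Slc25a33, a mitochondrial pyrimidine nucleotide carrier, had 4.86 RPKM in replicate 1 against 3.28 in replicate 2. Of the 6 genes with a mean of 1 RPKM or more, 2 were higher in replicate 1 and 4 in replicate 2, where 55.9% of all genes tested were higher in replicate 1.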
